A study of Rattus norvegicus with 8 samples.

Results

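In penile tissue of rats, 5 genes with known roles in neurons were read: Map2, Ppp2r2b, Dlg4, Trim2 and Gdnf. They were chosen by name, 3 through their probe and 2 through the RefSeq mRNA that the file gives for a probe. Earlier results of these data were known at that choice. Each gene is represented here by 1 mRNA probe printed on 10 spots of every array. These 5 probes are among 62 with an mRNA or transcript accession and 14227 probes in all on the array that are not controls. The 14145 probes for circular RNA (circRNA) were not matched to genes, so any that read these 5 genes are not covered. The study compared 4 samples labelled Control with 4 labelled Model, 1 array each. Its title names erectile dysfunction caused by diabetes. The treatment notes, which all samples share, describe subcutaneous apomorphine at 100 μg/kg and 30 min of watching, with the animals that gave no erection taken as the diabetic ones with dysfunction. They do not state what Model stands for, and give no strain, age, or means of inducing diabetes. That Model is the diabetic group is inferred from the title. All RNA was digested with RNase R, which removes linear RNA, before random-primed labelling, so each signal is RNA left after digestion and need not follow the mRNA level of the tissue. Nothing says that each sample is a separate animal, so a p-value here speaks of variation among these arrays, part of which may be technical.

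The nerves that drive erection end in the corpora cavernosa, while their cell bodies lie in ganglia outside the tissue. Nitric oxide made by neuronal nitric oxide synthase in these endings relaxes the smooth muscle, and loss of such nerve fibres is a known feature of diabetic erectile dysfunction. Map2 binds and stabilises microtubules, mainly in dendrites, and Ppp2r2b encodes a regulatory subunit, abundant in brain, that directs protein phosphatase 2A to its substrates. Dlg4 encodes the postsynaptic scaffold PSD-95, which holds NMDA receptors and neuronal nitric oxide synthase together. Trim2 is a ubiquitin ligase that acts on neurofilament light chain, and Gdnf is a secreted factor that supports neurons through the receptor Ret and its co-receptor. No probe with a symbol on this array reads a nitric oxide synthase, a neurofilament, an NMDA receptor or Ret: of 64 genes listed for the cytoskeleton, the postsynaptic density, neurotrophic signalling, protein phosphatase 2A and neuronal ubiquitin ligases, the 5 genes described here were the ones matched. None of 39 listed markers of smooth muscle, endothelium, neurons, Schwann cells, fibroblasts, immune cells, skeletal muscle or epithelium had a matched probe. Only the 39 mRNA probes that carry a symbol could match, and the circRNA probes could not. The labelled tissue therefore could not be checked. Fewer cells of a type and less RNA per cell cannot be told apart in such tissue RNA.

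Signals are given as log2 of the background-subtracted intensity after subtraction of the 75th percentile of all probes on that array. On this scale Map2 and Ppp2r2b fell in Model and Dlg4 and Trim2 rose, while Gdnf, although higher on average, did not pass. A gene is called changed here at a limma adjusted p under 0.05, with the fit and the Benjamini-Hochberg adjustment over all 13646 probes tested. Thus 4 of the 5 probes were called, where 47.1% of all probes tested and 45.9% of the 61 tested mRNA probes were. By direction, 2 were lower, against 25% of all probes and 31.1% of the mRNA probes, and 2 higher, against 22.1% and 14.8%. The balance of directions moves with the zero point: 46.9% of the calls over all probes were higher here, and 68.3% with each array centred on its median, which moved the median probe from -0.032 to 0.29. The 5 signs were the same under that centring. The median absolute log2 difference was 0.707 over the 5 genes, 0.542 over the tested mRNA probes and 0.619 over all probes. The groups did not overlap for Map2, Dlg4 and Trim2, 3 of 5 probes, where this held for 43% of all probes tested and 37.7% of the mRNA probes. Since the genes were chosen with earlier results of these data known, these counts beside the shares are a description.

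**Figure D1:**
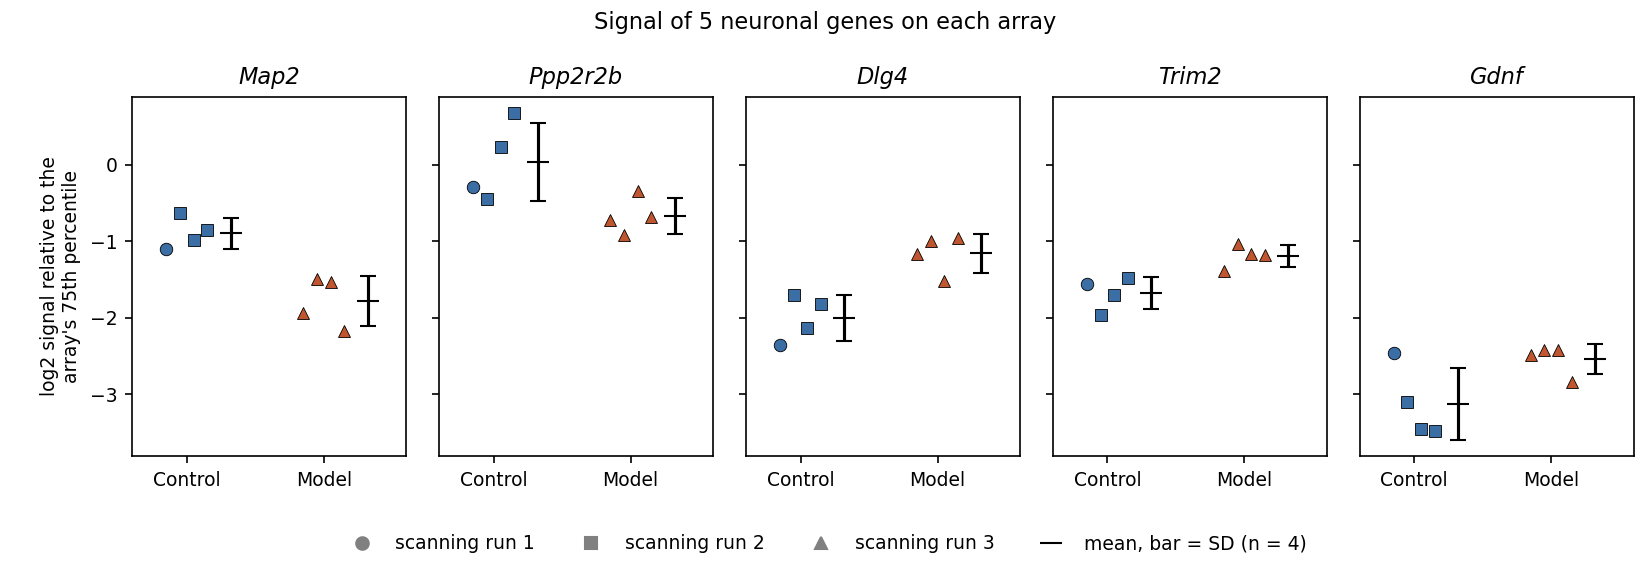
Relative log2 signal of each gene (zero is the 75th percentile of the array), 1 point per array, with the mean and SD (n = 4) beside each group and the marker shape giving the scanning run. Map2 lies lower and Dlg4 and Trim2 higher on every Model array than on any Control array, while for Ppp2r2b and Gdnf the groups overlap.

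All arrays carried usable signal. The 75th percentile of the intensity ran from 47.9 to 127 units, the median local background from 12.5 to 15, and no spot was saturated. Intensities here and below have the background already subtracted, so a value near the local background does not mean an undetected spot. Control 1 was scanned in 1 run, Control 2 to 4 in another and all Model arrays in a further one. No run held both groups, so scanning run and group cannot be told apart.

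Map2, the microtubule-associated protein, was lower on every Model array. Its log2 relative signal was -1.10, -0.63, -0.98 and -0.85 on Control 1 to 4. On Model 1 to 4 it was -1.94, -1.49, -1.52 and -2.17. The groups were 0.39 apart at their nearest, and the lowest values were those of Model 1 and Model 4. The mean went from -0.89 ± 0.20 in Control to -1.78 ± 0.33 in Model (SD, n = 4), a fall of 1.85-fold with a 95% interval of 1.34 to 2.56. The log2 difference was -0.89 (SE 0.21), with a limma adjusted p of 0.00591. Map2 was also the sole gene of the 5, where 28.1% of all probes did so, whose unscaled signals did not overlap between the groups: the median intensity of its spots was 30.3 to 69.7 units in Control and 13.9 to 22.8 in Model. The call was lost with the zero point at the median of the mRNA probes (-0.57, adjusted p = 0.0838 by limma).

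The spots of a probe show how well 1 array measures it. For Map2 all 80 spots were well above background, and the coefficient of variation over the 10 spots was 4.75% to 9.69% on 7 arrays. On Model 4 it was 27.7%, where a single spot stood at -1.32 and the next at -2.05. The median of the spots there was -2.25, slightly below the mean, so that spot narrowed the difference between the groups. Across all spots, Control ran from -1.43 to -0.49 and Model from -2.41 to -1.32. Map2 was dimmest on Model 4, at a median of 13.9 units after background subtraction, where the local background was 14.5.

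**Figure D2:**
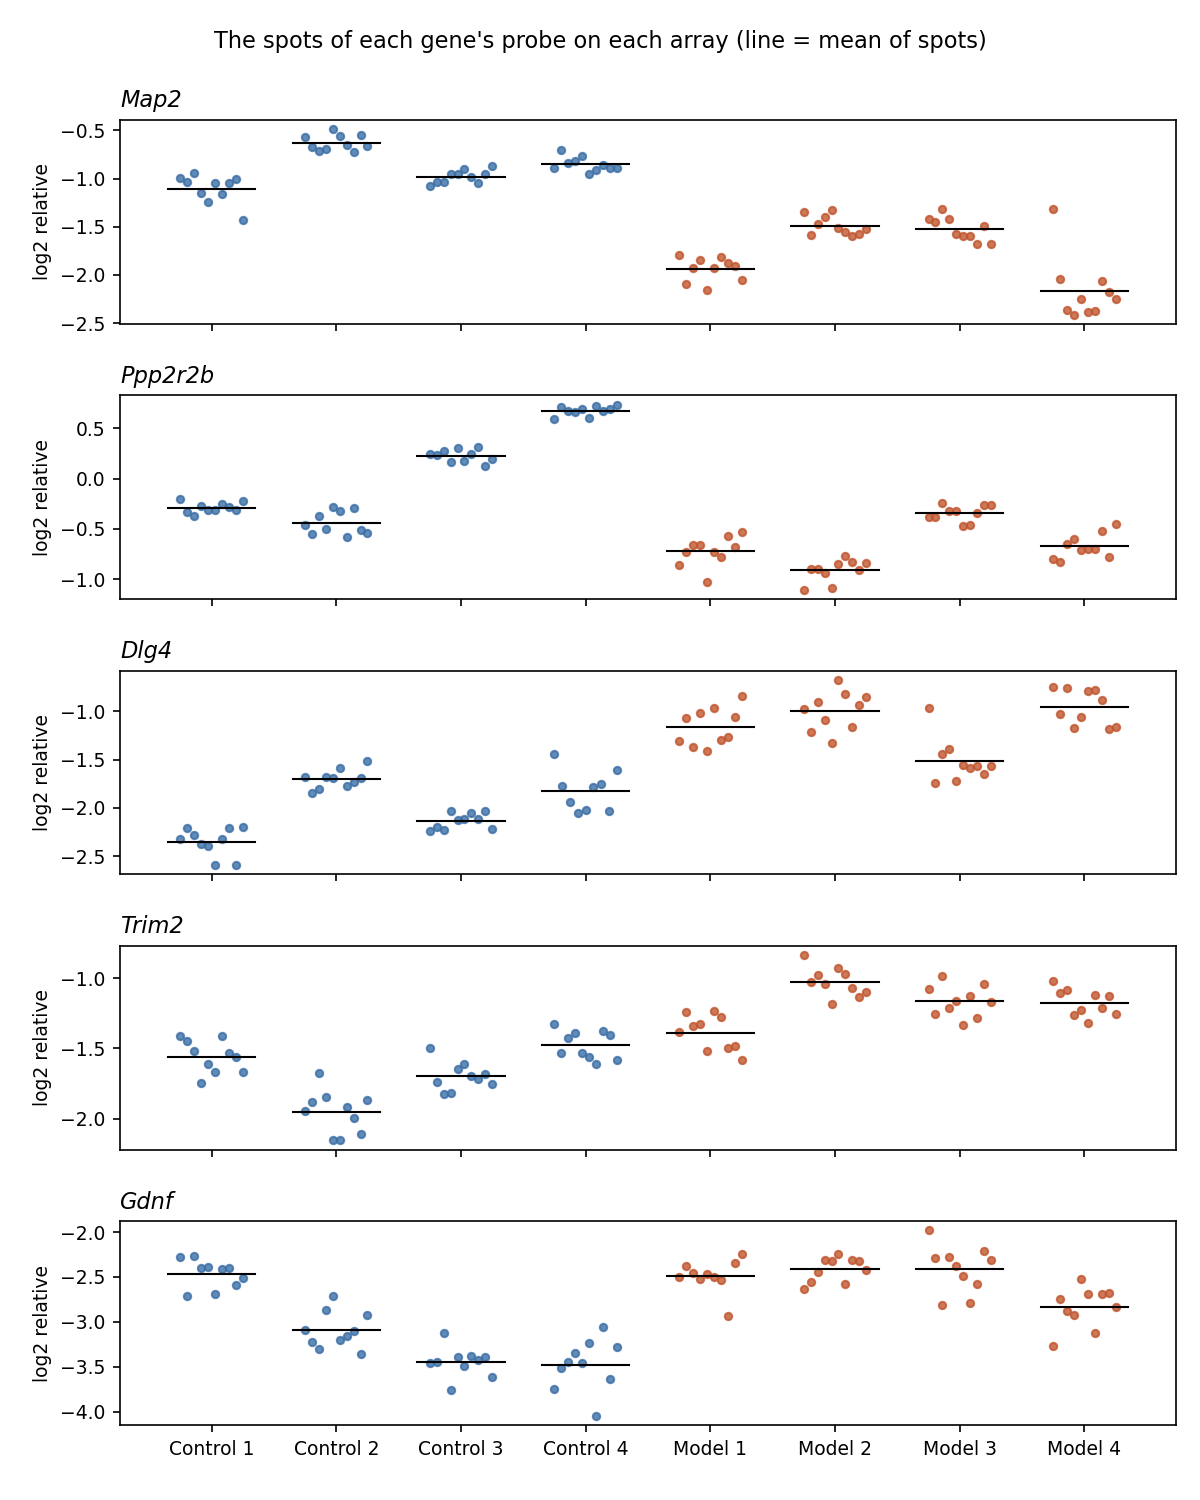
Log2 relative signal of every spot of the 5 probes on each array, in blue for Control and orange for Model, with a line at the mean of the spots. The spots of Ppp2r2b are the tightest and those of Gdnf and Dlg4 spread more, beyond the gaps between some arrays of a group; a single Map2 spot on Model 4 stands at -1.32.

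Ppp2r2b, the phosphatase subunit, was lower on average in Model, but its groups overlapped. Control 1 to 4 gave -0.29, -0.44, 0.23 and 0.68, and Model 1 to 4 gave -0.72, -0.91, -0.35 and -0.67. Control 3 and Control 4 stood above all other arrays, and Model 3 lay between Control 1 and Control 2. The mean went from 0.04 ± 0.51 to -0.66 ± 0.24 (SD, n = 4), a fall of 1.63-fold with a 95% interval of 1.09 to 2.44. The log2 difference was -0.71 (SE 0.26; limma adjusted p = 0.0460).

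Ppp2r2b had the widest spread in Control of the 5 genes, at 1.12 from lowest to highest, although its spots agreed within 3.23% to 9.61% on each array. Its order over the Control arrays was that of the array's 75th percentile of intensity, which was 47.9 on Control 2, 69.9 on Control 1, 94.7 on Control 3 and 127 on Control 4. The Model arrays did not follow that order: Model 3, the dimmest at 55.4, had the highest Ppp2r2b of its group, and Model 1, the brightest at 81.6, stood at -0.72. The part of array brightness in the difference was not tested. Without Control 4 the log2 difference was -0.50 (limma adjusted p = 0.0938), and with Control 1 and 2 as the sole controls it was -0.30 (limma adjusted p = 0.291).

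Dlg4, the postsynaptic scaffold, was higher on every Model array. Control 1 to 4 stood at -2.35, -1.70, -2.14 and -1.82. Model 1 to 4 stood at -1.16, -0.99, -1.52 and -0.96. Model 3, the lowest of its group, was 0.18 above Control 2, the highest of the controls. The mean rose from -2.00 ± 0.30 to -1.16 ± 0.26 (SD, n = 4), 1.80-fold with a 95% interval of 1.30 to 2.49. The log2 difference was 0.85 (SE 0.21; limma adjusted p = 0.00791). Only 3 of the 61 tested mRNA probes had a larger positive difference.

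On the unscaled signal Dlg4 overlapped between the groups, at 14.0 to 37.0 intensity units in Control and 18.8 to 36.4 in Model. There its log2 difference was 0.58 (limma adjusted p = 0.283). All 79 spots used were well above background, and 1 spot on Control 4 was left out as not uniform. The spots varied by 5.71% to 17.2%, with Model 3 the least even. On Control 1 and Control 2 their median intensity after background subtraction was 14.0 and 14.8 units, where the local background was 12.5 and 13.

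Trim2, the ubiquitin ligase, was higher on every Model array by a small margin. Control 1 to 4 gave -1.56, -1.96, -1.70 and -1.48. Model 1 to 4 gave -1.39, -1.03, -1.17 and -1.17. Model 1 lay 0.087 above Control 4, and this was the narrowest gap among the 3 genes whose groups did not overlap. The mean rose from -1.67 ± 0.21 to -1.19 ± 0.15 (SD, n = 4), 1.40-fold with a 95% interval of 1.06 to 1.84. The log2 difference was 0.48 (SE 0.18), and its limma adjusted p of 0.0469 was close to the threshold. Leaving out Control 2, Control 3 or any 1 Model array ended the call, with log2 differences of 0.39 to 0.55 and limma adjusted p from 0.0548 to 0.127. The direction was the same in all of these. The probe was evenly measured, with a coefficient of variation of 6.60% to 10.6% over its spots. It was dim on Control 2, at a median of 12.6 units after background subtraction, where the local background was 13.25.

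Gdnf, the neurotrophic ligand, was dim and did not pass the test. After background subtraction its spots had a median intensity of 5.47 to 13.2 units in Control and 9.54 to 14.6 in Model. The local background was 12 to 14. Of 80 spots 78 were well above background, and the other 2 were on Control 2. Relative signals were -2.46, -3.09, -3.45 and -3.48 on Control 1 to 4 and -2.49, -2.41, -2.41 and -2.83 on Model 1 to 4. Control 1 thus lay within the range of the Model arrays, and the other Control arrays lay below all of them. The means were -3.12 ± 0.47 and -2.54 ± 0.20 (SD, n = 4), a log2 difference of 0.58 (SE 0.25; 95% interval 0.038 to 1.13; limma adjusted p = 0.0742). Against Control 2 to 4 alone, the log2 difference was 0.80 (limma adjusted p = 0.00708), while against Control 1 alone it was -0.074, with a 95% interval of -0.70 to 0.56. That comparison has 1 Control array, which is assumed to vary like the Model arrays, so its value near 0 settles no sign. Control 1 and Control 2 to 4 are the 2 scanning runs of the controls.

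The probe sequences of these genes were not used here. For Gdnf, the window before the gene's start is shown because it was the sole one of the 5 genes' RefSeq promoter windows (assembly GRCr8) that lies wholly outside its annotated gene. For Dlg4, Trim2, Map2 and Ppp2r2b, the starts that the windows lead up to lie 387 bases or more inside the genes. The 250 bases before the start of Gdnf, at chr2:58621077-58621326 on the + strand, read as follows, with a match to TATAAA in capitals.
Gdnf: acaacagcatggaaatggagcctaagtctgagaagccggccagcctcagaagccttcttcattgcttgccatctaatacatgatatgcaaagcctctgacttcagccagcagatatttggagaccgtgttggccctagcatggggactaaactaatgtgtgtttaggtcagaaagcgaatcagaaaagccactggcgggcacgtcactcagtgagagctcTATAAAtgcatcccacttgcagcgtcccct
The match begins 30 bases before the start, the usual place of a TATA box. TATAAA, searched on both strands, was in 12.9% of 33469 windows of this length in the table. CCAAT and GGGCGG, present in 34% and 30.5% of the windows on either strand, did not match here. The window held 49.6% G and C, where the median window held 51.2%. No file of the series measured this region, and a match describes letters alone.

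**Figure D3:**
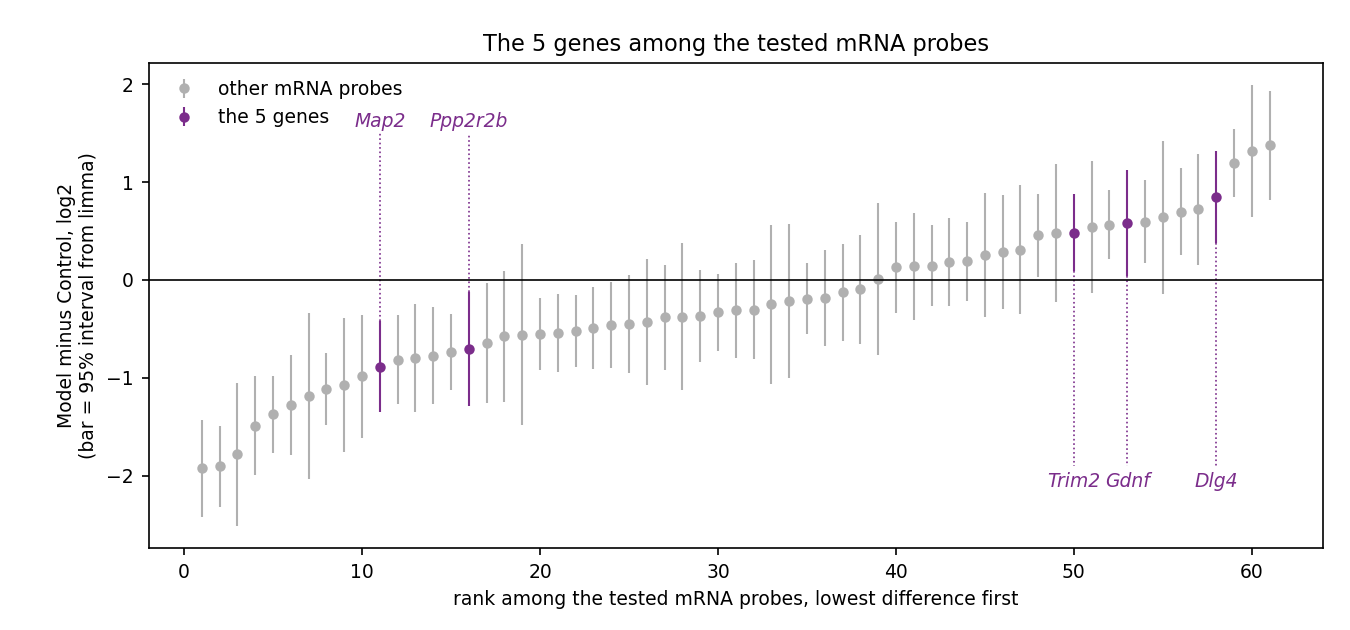
Log2 difference of Model minus Control with its 95% interval from limma for the 61 tested mRNA probes, ordered from the lowest, with the 5 genes in purple. Dlg4, Gdnf and Trim2 lie among the higher differences, at 0.85, 0.58 and 0.48, and Map2 and Ppp2r2b among the lower ones, at -0.89 and -0.71.

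The sign of a difference on a relative scale depends on the zero point, which a ratio between probes of the same array does not share. Among the 10 ratios between the 5 genes, 6 did not overlap between the groups. Each of these sets Map2 or Ppp2r2b against Dlg4, Trim2 or Gdnf. The same held for 39.7% of the 1830 ratios between tested mRNA probes, which are pairs of any sign. Differences of opposite sign add up in a ratio, so that share is not a like background for the 6. Ratios that share a gene are not independent, and the level of a ratio has no meaning of its own, since probes differ in how they respond. No test was made of the ratios.

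The ratio of Map2 to Dlg4 differed most between the groups. Its log2 value was 1.25, 1.07, 1.16 and 0.97 on Control 1 to 4 and -0.78, -0.50, -0.0076 and -1.21 on Model 1 to 4. It went from 1.11 ± 0.12 to -0.62 ± 0.50 (SD, n = 4), a difference of 3.33-fold. The Control arrays agreed within 0.27 across their 2 scanning runs, while the Model arrays, all of 1 run, spread over 1.20. In the other ratios between the genes, the Control arrays spread over 0.87 to 1.98. The part of scanning run in these spreads was not tested. Model 3, where Dlg4 was lowest, was closest to the controls.

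The ratio of Dlg4 to Ppp2r2b went from -2.05 ± 0.56 to -0.49 ± 0.47, and the ratio of Map2 to Gdnf from 2.23 ± 0.58 to 0.76 ± 0.18 (SD, n = 4). The ratio of Map2 to Trim2 went from 0.78 ± 0.38 to -0.59 ± 0.28, and the ratio of Trim2 to Ppp2r2b from -1.72 ± 0.40 to -0.53 ± 0.30 (SD, n = 4). That of Gdnf to Ppp2r2b went from -3.16 ± 0.91 to -1.87 ± 0.30, with Control 1 at -2.17 against -2.16 on the nearest Model array. The probe signals of Dlg4, Trim2 and Gdnf were thus higher relative to those of Map2 and Ppp2r2b on each Model array compared with each Control array. These sets are the genes with higher and with lower means in Model, so the ratios in part repeat those signs.

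Within each of these sets the ratios overlapped. The ratio of Map2 to Ppp2r2b was -0.93 ± 0.58 in Control and -1.12 ± 0.38 in Model, and that of Trim2 to Gdnf was 1.45 ± 0.51 and 1.35 ± 0.24 (SD, n = 4). The ratio of Dlg4 to Trim2 was -0.33 ± 0.44 and 0.032 ± 0.27, and that of Dlg4 to Gdnf 1.12 ± 0.69 and 1.38 ± 0.40 (SD, n = 4). The overlap does not show that these genes changed alike.

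**Figure D4:**
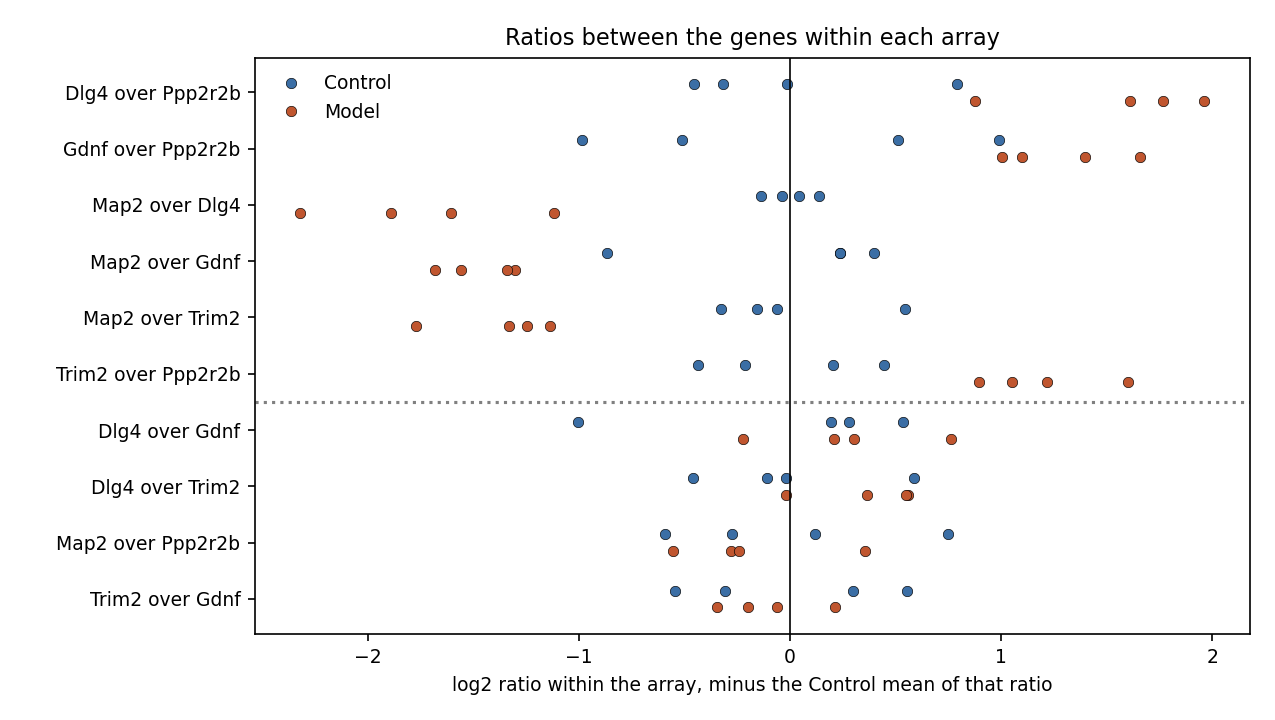
Log2 ratio of 2 genes on the same array, minus the Control mean of that ratio, 1 point per array, for the 10 pairs. The 6 pairs above the dotted line do not overlap between Control and Model, with Map2 over Dlg4 differing most, by -1.73, and the 4 pairs below it overlap.

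Over the 8 arrays, each gene was also set beside the 33 other tested mRNA probes with a symbol. Pearson's r is given as a description: the arrays fall into 2 groups and share scanning runs, so r holds the group difference, and r between deviations from the group means is given beside it. Map2 was most like Slc28a2, a nucleoside transporter (r = 0.938, and 0.819 within groups), and then a probe of Ldha, a lactate dehydrogenase subunit (0.892 and 0.300). Ppp2r2b was most like Nat1, an arylamine acetyltransferase (0.930 and 0.887), and the glycolytic enzyme gene Pgk1 (0.919 and 0.911). Gdnf was most like Med16, a subunit of the Mediator complex (0.905 and 0.954), and Pop7, a subunit of RNase P (0.764 and 0.516). The chaperone gene Hsp90ab1 was first for Dlg4 (0.863 and -0.013) and for Trim2 (0.871 and 0.603), followed in each case by Pop7 (0.757 and -0.461 for Dlg4; 0.810 and 0.0823 for Trim2). For Dlg4 the likeness was thus to the group difference and not to the spread within groups.

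Across 22 other settings of the fit, Dlg4 kept its call in 20 and Map2 in 19. Trim2 kept it in 9 and Ppp2r2b in 8, and Gdnf, not called here, was called in 4. The settings refit the same 8 arrays or part of them, so these counts are not separate checks. Normexp background correction on the median intensity of the spots, with an offset of 50 intensity units, left none of the 5 called; it changes the signal column, the background method and the offset together. With scanning run as a random block, which widens the errors and cannot separate run from group, Map2 (-0.87) and Dlg4 (0.88) were called. Against Control 1 alone, where the spread comes from the Model arrays only, the log2 difference was 1.19 for Dlg4 (95% interval 0.51 to 1.87) and -0.68 for Map2 (-1.43 to 0.082).

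**Figure D5:**
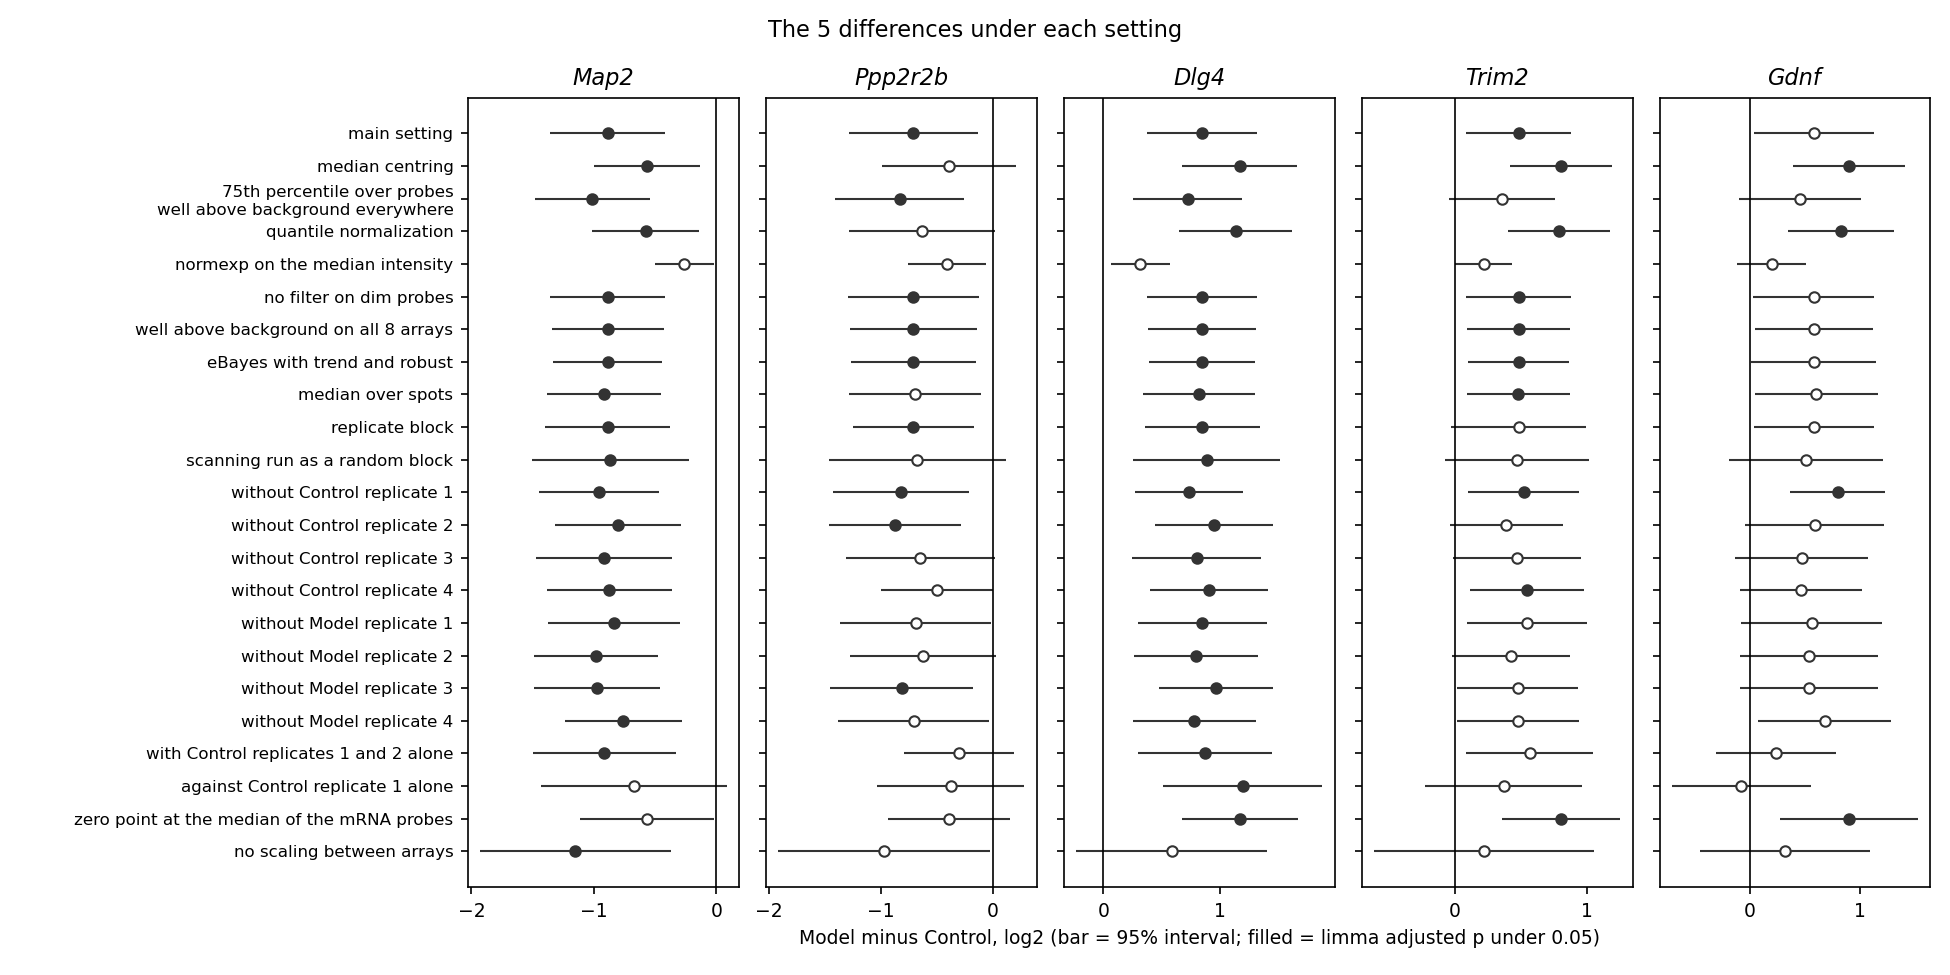
Log2 difference of Model minus Control for each gene with its 95% interval under the main setting and 22 others, filled where the limma adjusted p is under 0.05. Among the 22 others Map2 is filled in 19, Dlg4 in 20, Trim2 in 9, Ppp2r2b in 8 and Gdnf in 4, and the point of Gdnf is below 0 against Control replicate 1 alone.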

How the data were processed

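Cy3-labelled cRNA of 8 samples (4 Control, 4 Model, from the titles) was hybridised to 1-colour circRNA arrays at 65 °C for 17 h, per the labels' protocols. The scanner software was Feature Extraction 11.0.1.1 of Agilent, per the file headers. The deposited intensity used is its processed signal, which has the background subtracted and spatial trends removed; no scaling between arrays is recorded. Other deposited columns are flags that the scanner software set. The deposited table of circRNA values was not used here, and whether it holds circRNAs of the 5 genes was not checked.

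Non-uniform spots were dropped, spots of a probe averaged as log2, and each array's 75th percentile over probes subtracted. Symbols came from RefSeq (GRCr8) by accession: 39 of 62 mRNA probes matched, for 38 genes. Probes that 4 or more of the 8 arrays showed well above background were fitted in limma 3.58.1 (R 4.3.3), Model against Control, with Benjamini-Hochberg adjustment; the fit was tested on simulated data. The number of arrays limits precision.

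The genes, lists and tests were chosen with earlier results of these data known. All 5 genes are named, with listed genes that have a probe and, for each, the 2 most correlated mRNA probes. Alternatives added after seeing the files were Control 1 alone, the mRNA median as zero point and no scaling.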

Additional observations from a re-analysis of the deposited data

Results flagged for a closer look

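In 1 of 30 sets of 4 arrays examined (10 of relative signals and 20 of ratios between the genes), 1 array lay far from the others, where chance gives about 1 in 20. The log2 ratio of Map2 to Gdnf on Control 1 was 1.36, while Control 2 to 4 gave 2.46 to 2.62. Control 1 was the control array with the highest Gdnf signal and the lowest Map2 signal, and no other array shared its scanning run; the part of that run was not tested.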

How the results depend on the processing

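Under 22 other settings, 19 of them planned, the signs of Map2, Dlg4, Trim2 and Ppp2r2b held, and the estimate for Gdnf was near 0 and turned against Control replicate 1 alone (-0.074). The log2 differences of Map2 ran from -1.15 to -0.26, of Dlg4 from 0.32 to 1.19, of Trim2 from 0.22 to 0.80, of Gdnf from -0.074 to 0.90 and of Ppp2r2b from -0.97 to -0.30. Where a call ended or began, the cause was not tested unless stated. With normexp on the median intensity, which changes the signal column, the background method and the offset of 50 together, 0 of the 5 genes were called by limma, where 14 mRNA probes and 3569 probes in all were: Map2 -0.26, Dlg4 0.32, Trim2 0.22 and Ppp2r2b -0.40, with limma adjusted p from 0.0667 to 0.136; Gdnf was not called in either setting. Median centring and quantile normalization ended the call of Ppp2r2b (-0.39 and -0.63) and began that of Gdnf (0.90 and 0.83). Taking the zero point from probes detected on every array ended that of Trim2 (0.36), and the median over spots that of Ppp2r2b (-0.69, limma adjusted p = 0.0526).

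With scanning run as a random block, 2 of the 5 genes, 14 mRNA probes and 4056 probes in all were called, and Trim2 (0.47) and Ppp2r2b (-0.67) were not, through wider errors (SE 0.25 and 0.36). With Control replicates 1 and 2 alone 2 genes were called, without Trim2 (0.57) and Ppp2r2b (-0.30). Against Control replicate 1 alone, a single array assumed to vary like the Model arrays that give all the spread, 1 gene was called, with 17 mRNA probes and 4161 in all; such calls say little about stability. Map2 (-0.68), Trim2 (0.37) and Ppp2r2b (-0.38) were not. With the zero point at the median of the mRNA probes, Map2 (-0.57) and Ppp2r2b (-0.39) lost their calls and Gdnf (0.90) gained one. Without scaling between arrays, 1 gene, 14 mRNA probes and 3828 in all were called; Dlg4 (0.58), Trim2 (0.22) and Ppp2r2b (-0.97) were not.

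Leaving out 1 array gave 2 to 5 called genes, 18 to 34 mRNA probes and 5204 to 7000 probes in all. The log2 differences were -0.99 to -0.76 for Map2 and 0.73 to 0.97 for Dlg4, called each time. They were 0.39 to 0.55 for Trim2, 0.46 to 0.80 for Gdnf and -0.87 to -0.50 for Ppp2r2b. The 2-gene counts came without Control replicate 3 and without Model replicates 1, 2 or 4, and 18 mRNA probes without Control replicate 3.

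The labels do not say whether the replicate numbers pair the arrays. Same-numbered arrays deviated from their group means with correlations of 0.061, -0.039, 0.185 and -0.179 over 13646 probes. Differently numbered arrays were not set beside them, so these values cannot settle whether a pairing exists. With the replicate block, 3 genes, 22 mRNA probes and 5964 probes in all were called, and Trim2 (0.48, limma adjusted p = 0.113) was not. The share of higher calls over all probes was 46.9% in the main setting, 68.3% with median centring, 69.2% with the mRNA median, 61.7% with normexp and 29.1% without scaling. Gdnf was dim, at 5.47 to 14.6 intensity units after background subtraction, where the local background was 12 to 14. Map2, Dlg4 and Trim2 came within the range of Gdnf on their dimmest arrays, at 13.9, 14.0 and 12.6 units. The part of dim signal in the missing call of Gdnf, or in the calls of those genes, was not tested.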
